A study of Mus musculus with 6 samples.

Results

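Car4, Rgcc, Aqp1, Aqp7, Kcna5, Btnl9, Cd300lg, Mgll, Tspan13 and Slc28a2 are genes used as markers of heart capillaries whose products do not belong to the machinery of fatty acid uptake. They were taken by symbol from the deposited expression table, where each of the 10 symbols occurred in 1 row of 45038. Levels are in FPKM, fragments per kilobase of transcript scaled to sequencing depth. All 10 passed the filter on low values, which asked for 1 FPKM or more in 3 or more libraries and left 10168 genes for testing. Sorted cells of 6 libraries were sequenced from C57BL/6 mice of the genotype Tie2-Cre;Rosa-LSL-tdTomato, in which Cre acts from the Tie2 promoter and switches on a red reporter in endothelial cells and in some cells of the blood lineage. In the MI group (n = 3), the left anterior descending coronary artery had been ligated at an age of 6 to 8 weeks and infarct tissue was taken 3 weeks later. In the Normal group (n = 3), normal left ventricle was taken and the labels give no infarct surgery. The age of 6 to 8 weeks stands in a protocol text attached to the samples of both groups, which gives no separate age at which Normal tissue was taken. Cells of both groups were sorted as tdTomato+F4/80-, so both groups carry the Cre, the reporter and the exclusion of F4/80, a macrophage antigen. Libraries are named by the numbers Ms1535, Ms1537 and Ms1608, which both groups share. The labels do not say whether a number is 1 mouse or whether animals were pooled, so p-values measure only the spread between these libraries.

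Capillaries of the heart form a continuous endothelium, closely applied to the muscle fibres, that passes gas, water, fuels and signals between blood and muscle. Its cells carry a set of enzymes, channels and surface proteins that distinguishes them from the endothelium of arteries, veins and endocardium. Car4 is a carbonic anhydrase anchored on the outer face of the membrane, where it interconverts carbon dioxide and bicarbonate. Aqp1 is a water channel and Aqp7 a channel for glycerol and water, while Mgll cleaves monoglycerides into glycerol and fatty acid. Slc28a2 imports purine nucleosides together with sodium, and Kcna5 is a voltage-gated potassium channel. Btnl9 and Cd300lg are surface proteins of the immunoglobulin superfamily, Tspan13 is a tetraspanin, and Rgcc is a regulator of the cell cycle first described as a response gene to complement.

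The genes lie on 6 chromosomes of GRCm38 and all are protein-coding in GENCODE. Car4 (chr11:84957786-84966044), Btnl9 (chr11:49165585-49187159) and Cd300lg (chr11:102041509-102055620) share chromosome 11, and Aqp1 (chr6:55336432-55348555), Mgll (chr6:88724412-88828360) and Kcna5 (chr6:126532551-126535412) share chromosome 6. Rgcc lies at chr14:79288756-79301645, Aqp7 at chr4:41033074-41048139, Tspan13 at chr12:36014557-36042500 and Slc28a2 at chr2:122426477-122461137. Kcna5 has a single exon, whereas transcripts of Slc28a2 have up to 19. The antisense gene Gm26588 overlaps the start of Mgll and was at 0.0194 to 0.475 FPKM, and whether reads were counted by strand was not given. Promoter windows of RefSeq (GRCm38.p6), from 250 bases before a gene's start to 50 after it, were matched for 9 of the 10 genes. The windows of 4 genes are shown, chosen after their values were seen, because their RNA levels followed contrasting patterns: Car4 with the largest difference between infarct and 2 of the Normal libraries, Btnl9 and Mgll from the set that was nearly lost from the third, and Rgcc, which was not. Capitals mark each match to 8 short motifs searched on both strands.
Car4, chr11:84957504-84957803, plus strand: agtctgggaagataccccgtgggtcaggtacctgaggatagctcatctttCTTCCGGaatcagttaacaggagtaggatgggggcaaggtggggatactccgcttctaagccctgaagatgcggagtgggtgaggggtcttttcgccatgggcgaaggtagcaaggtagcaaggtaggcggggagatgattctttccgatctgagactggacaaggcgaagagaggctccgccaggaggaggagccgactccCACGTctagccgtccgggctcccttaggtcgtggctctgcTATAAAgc
Btnl9, chr11:49187040-49187339, minus strand: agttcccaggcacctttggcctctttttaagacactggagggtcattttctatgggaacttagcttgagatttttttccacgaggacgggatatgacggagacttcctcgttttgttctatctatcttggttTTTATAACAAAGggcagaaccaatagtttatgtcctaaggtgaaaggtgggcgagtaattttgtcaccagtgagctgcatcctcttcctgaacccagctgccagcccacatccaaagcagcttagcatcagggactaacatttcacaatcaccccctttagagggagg
Mgll, chr6:88724162-88724461, plus strand: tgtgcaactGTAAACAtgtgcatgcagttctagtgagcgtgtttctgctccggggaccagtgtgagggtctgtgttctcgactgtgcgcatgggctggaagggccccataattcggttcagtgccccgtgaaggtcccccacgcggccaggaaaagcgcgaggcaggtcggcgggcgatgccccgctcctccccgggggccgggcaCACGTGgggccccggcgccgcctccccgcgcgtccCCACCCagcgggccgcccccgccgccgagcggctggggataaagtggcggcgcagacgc
Rgcc, chr14:79301586-79301885, minus strand: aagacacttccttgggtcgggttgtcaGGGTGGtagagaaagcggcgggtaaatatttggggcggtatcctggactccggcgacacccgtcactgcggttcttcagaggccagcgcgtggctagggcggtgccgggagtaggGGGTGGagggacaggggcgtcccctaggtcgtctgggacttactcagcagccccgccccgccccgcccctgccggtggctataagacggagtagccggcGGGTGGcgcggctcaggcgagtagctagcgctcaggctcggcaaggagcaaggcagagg
Counted from the start as position 1, the Car4 window holds the ETS motif CCGGAAG on the minus strand at -200 to -194, the HIF motif ACGTG on the minus strand at 3 to 7 and the TATA motif TATAAA at 43 to 48. The Btnl9 window holds TATAAA on the minus strand at -118 to -113, directly followed by the SOX motif ACAAAG at -112 to -107. The Mgll window has the FOX motif GTAAACA at -241 to -235, the KLF motif CCACCC at -9 to -4, and ACGTG on both strands in 2 overlapping matches from -44 to -39. The Rgcc window has CCACCC on the minus strand 3 times, at -223 to -218, -108 to -103 and -9 to -4. Among the 11 windows of the 9 genes, CCACCC was found in 6, against 31.5% of all 32851 promoter windows. CCGGAAG was found in 1 (8.86% of all windows), GTAAACA in 1 (3.65%), TATAAA in 2 (13.6%) and ACAAAG in 2 (18.7%). ACGTG was found in 3 (19.6%) and the GATA motif AGATAA in 2 (11.2%), while a PPAR direct repeat was found in 0 of the 11 (0.0396%). These matches describe the letters of the windows, and no set of them was shared by all 9 genes.

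**Figure D1:**
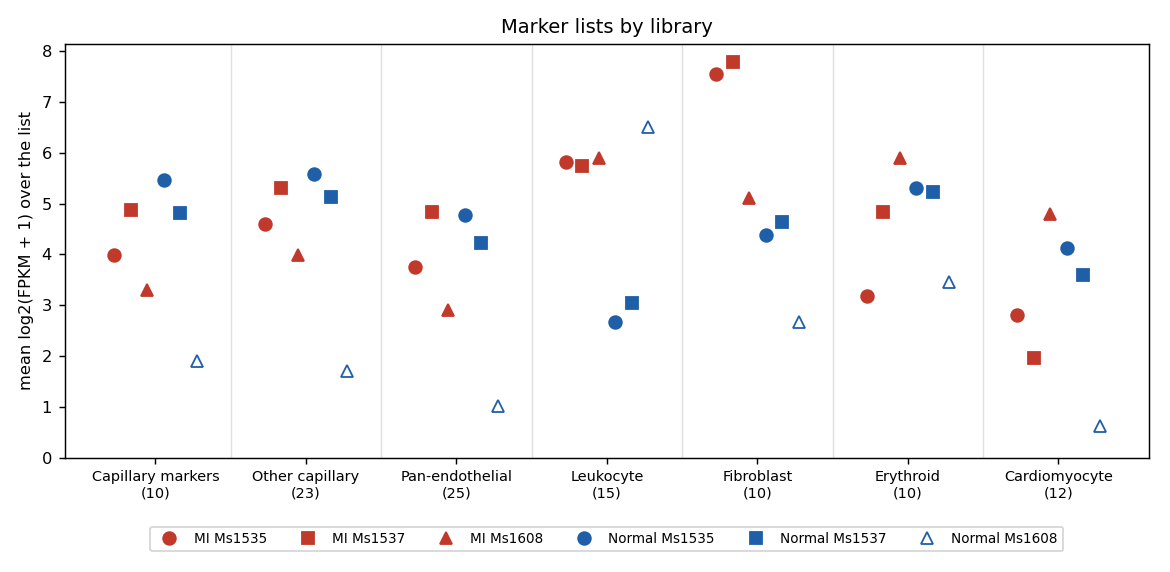
Mean log2(FPKM + 1) over 7 gene lists in each of the 6 libraries (red, MI; blue, Normal; the open triangle is Normal Ms1608; list sizes in brackets). Normal Ms1608 lies lowest in the 3 endothelial lists, at 1.90, 1.71 and 1.02, and highest in the leukocyte list, at 6.50.

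The libraries differed in levels of cell type markers, and 1 of them stood apart. Implied depths, read from the steps of low FPKM values, were 31.5 to 44.0 M fragments, more than the read number in the labels' protocol. At these implied depths, all 60 values of the 10 genes lay above the FPKM that 3 fragments would give. At a lower depth the lowest values, such as Kcna5 in Normal Ms1608, would rest on fewer fragments. Normal Ms1608 correlated with the other 5 libraries at 0.54 to 0.68 over the tested genes, against 0.80 to 0.92 among those 5. Its mean over 25 pan-endothelial genes was 1.02 log2(FPKM + 1), against 4.77 and 4.23 in the first 2 Normal libraries and a range of 2.91 to 4.84 in MI. In that library only 6 of the 25 genes reached 1 FPKM, none was listed at 0, and Cdh5, the endothelial cadherin that defines the type, was at 1.20 FPKM. One of the 6, S1pr1, a receptor that lymphocytes also carry, was at 494 FPKM. Markers shared by leukocytes went the other way, since all 15 reached 1 FPKM there and their summed level was 4119 FPKM, against 293 to 427 elsewhere in Normal and 2207 to 2533 in MI. Fibroblast markers averaged 5.11 to 7.78 log2(FPKM + 1) in MI and 2.68 to 4.63 in Normal, so these markers moved with the groups as well. Which of the sorted cells this RNA came from, and its part in the results, were not tested. Tests are therefore given with and without Normal Ms1608. In bulk samples, fewer capillary cells and less RNA per cell cannot be told apart.

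The genes of gas and water exchange, Car4 and Aqp1, had their highest values in Normal Ms1535 and their lowest in Normal Ms1608. Values are listed throughout in the order Ms1535, Ms1537, Ms1608. For Car4 the infarct values were 8.31, 9.48 and 4.34 FPKM, and the Normal values were 42.6, 27.2 and 0.398 FPKM. The 3 MI values lay below both of Normal Ms1535 and Ms1537, with the lowest of these 2.87 times the highest MI value, and all lay above Normal Ms1608. The infarct values of Aqp1 were 16.8, 29.1 and 14.6 FPKM, and the Normal values were 89.6, 27.4 and 0.816 FPKM. Normal Ms1535 stood 3.08 times above every MI library for Aqp1, but MI Ms1537 slightly exceeded Normal Ms1537, so the groups overlapped. Red blood cells also carry Aqp1, and the 10 erythroid markers had mean levels of 3.19, 4.83 and 5.90 log2(FPKM + 1) in MI and 5.30, 5.22 and 3.47 in Normal, with 6 to 9 of them at 1 FPKM or more. Of the MI libraries, Ms1608 held the most erythroid RNA and the least Aqp1. In Normal, Aqp1 fell in the order Ms1535, Ms1537, Ms1608. The mean erythroid level was nearly equal in Normal Ms1535 and Ms1537, and the summed level was higher in Normal Ms1537 (7242 FPKM) than in Normal Ms1535 (6853 FPKM). Both erythroid measures were lowest in Normal Ms1608. Summed erythroid levels were 446 to 9625 FPKM in MI and 1035 to 7242 FPKM in Normal. The part of erythroid RNA in the Aqp1 values was not tested.

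The genes that handle glycerol, monoglycerides and nucleosides each had a pattern of its own. The infarct values of Aqp7 were 4.44, 5.55 and 1.25 FPKM, and the Normal values were 13.1, 10.6 and 0.957 FPKM. As for Car4, all 3 MI libraries lay below Normal Ms1535 and Ms1537 and above Normal Ms1608, although in Normal Ms1608 the gene was only 1.31 times lower than in MI Ms1608. For Mgll the infarct values were 28.0, 63.3 and 22.1 FPKM, and the Normal values were 90.7, 44.7 and 1.34 FPKM, so that MI Ms1537 fell between both higher Normal libraries. Adipocytes use Aqp7 and Mgll too. Of 9 adipocyte markers 1 passed the filter, the lipase gene Lipe at 0.139 to 5.38 FPKM, and the defining markers Adipoq and Plin1 were at or below 0.333 and 0.0318 FPKM in all 6 libraries. Their part in the Aqp7 and Mgll values was not tested. The infarct values of Slc28a2 were 13.3, 33.0 and 17.3 FPKM, and the Normal values were 42.3, 21.1 and 12.5 FPKM. Its groups overlapped, and its lowest value was the 12.5 FPKM of Normal Ms1608, only 1.06 times below that of MI Ms1535. Slc28a2 has a close copy, Gm14085 (Slc28a2b in RefSeq), which holds 18.0% of the 100-base stretches of Slc28a2 transcripts, so the split of reads between both is uncertain. Gm14085 was at 0.0520 to 0.440 FPKM in 5 libraries and at 4.18 FPKM in Normal Ms1608. None of the other 9 genes shared a 100-base stretch with another gene.

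Kcna5 was the lowest of the 10 genes in 4 libraries. Its infarct values were 1.96, 11.5 and 1.39 FPKM, and the Normal values were 8.34, 4.62 and 0.0702 FPKM. Its highest value was in MI Ms1537, above both Normal Ms1535 and Ms1537, and the other MI libraries lay below them. The value in Normal Ms1608 corresponds to 6.87 implied fragments. Heart muscle cells also use this channel, and 12 cardiomyocyte markers had means of 2.81, 1.96 and 4.80 log2(FPKM + 1) in MI and 4.14, 3.60 and 0.62 in Normal, with sums of 152 to 1196 and 9.95 to 918 FPKM and 2 markers listed at 0 in Normal Ms1608. MI Ms1537, with the most Kcna5, had the lowest cardiomyocyte level of the 3 MI libraries, and MI Ms1608, with the least Kcna5, had the highest. In Normal, Kcna5 and the cardiomyocyte mean both fell in the order Ms1535, Ms1537, Ms1608. The part of cardiomyocyte RNA in the Kcna5 values was not tested.

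Of the surface proteins, 2 were nearly lost from Normal Ms1608 and 1 was not. For Btnl9 the infarct values were 18.1, 41.2 and 6.12 FPKM, and the Normal values were 51.4, 45.4 and 0.224 FPKM. All MI libraries lay below Normal Ms1535 and Ms1537, though MI Ms1537 and Normal Ms1537 were separated by only 1.10 times. The infarct values of Cd300lg were 7.56, 15.7 and 3.52 FPKM, and the Normal values were 22.3, 14.6 and 0.123 FPKM, and here MI Ms1537 exceeded Normal Ms1537. Infarct values of Tspan13 were 72.5, 99.3 and 41.3 FPKM, and the Normal values were 99.4, 89.4 and 23.5 FPKM. Its values in MI Ms1537 and Normal Ms1535 were nearly equal, and it kept a substantial level in Normal Ms1608. Plasmacytoid dendritic cells also express Tspan13, and the 8 measured markers of these and of B cells summed to 744 FPKM in Normal Ms1608, 165 to 318 FPKM in MI and 49.2 to 54.9 FPKM elsewhere in Normal. Their part in the Tspan13 values was not tested.

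Rgcc was the only one of the 10 genes that was not lowest in Normal Ms1608. Its infarct values were 73.7, 119.8 and 31.1 FPKM, and the Normal values were 109, 92.1 and 91.7 FPKM. The 3 Normal libraries were thus close to one another (97.4 ± 9.59 FPKM, SD, n = 3), although 1 of them held little endothelial RNA, whereas the MI libraries spread over 3.85 times. In Normal Ms1608, Rgcc was the most abundant of the 10 genes and stood above 91.7% of the tested genes. Leukocyte markers were highest in the same library, and their part in the Rgcc value was not tested.

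**Figure D2:**
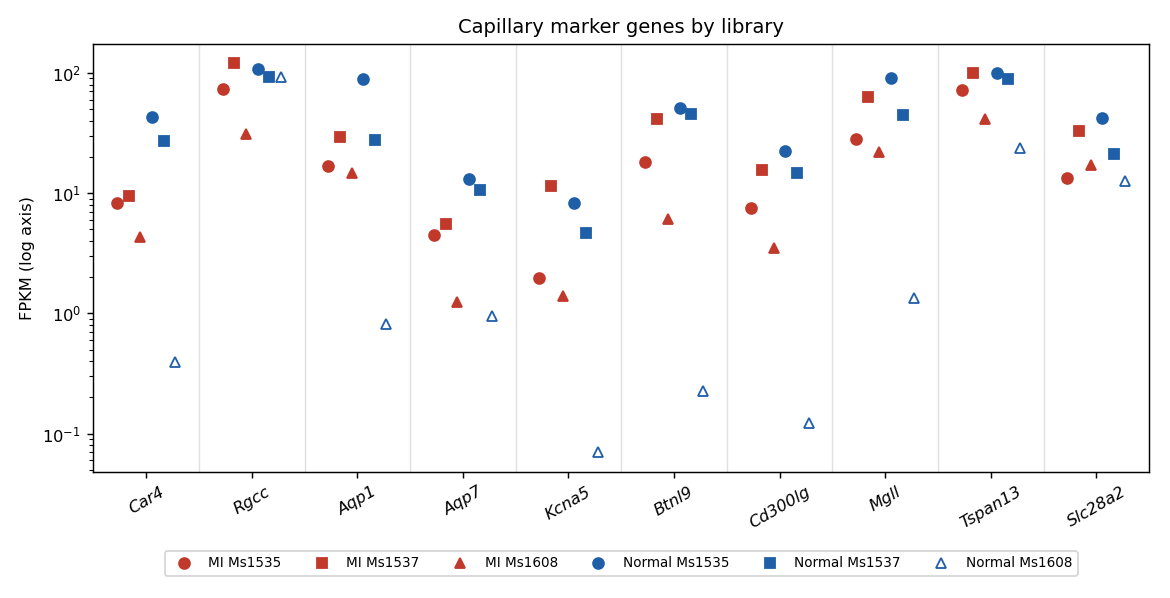
FPKM (log axis) of the 10 genes in the 6 libraries (red, MI; blue, Normal; circles Ms1535, squares Ms1537, triangles Ms1608; the open triangle is Normal Ms1608). Normal Ms1608 lies lowest for 9 genes, and Car4, Aqp7 and Btnl9 have all MI points below the filled blue points.

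Parts of the order of libraries recurred among the 10 genes. MI Ms1537 was the highest MI library for all 10 and MI Ms1608 the lowest for 9, with Slc28a2 as the exception. Normal Ms1535 exceeded Normal Ms1537 for all 10 and was the highest of the 6 libraries for 8, the exceptions being Rgcc and Kcna5, which peaked in MI Ms1537. Normal Ms1608 was the lowest of all libraries for 9 genes, where 44.1% of tested genes had their lowest value. It lay at least 10 times below every other library for 6 genes (Car4, Aqp1, Kcna5, Btnl9, Cd300lg and Mgll), against 19.9% of tested genes. The median of the 10 genes was 0.887 FPKM in Normal Ms1608, against 27.3 to 47.0 FPKM elsewhere in Normal and 10.4 to 31.0 FPKM in MI. Among the genes, Aqp1 and Mgll had the closest profiles over the 6 libraries, with a Euclidean distance of 0.81 between centred log2(FPKM + 1) values, and Rgcc and Btnl9 the most distant, at 4.41.

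Because FPKM depends on what else a library holds, the place of each gene among the 10168 tested genes of its own library was also described. Car4 stood above 51.9%, 51.3% and 44.0% of tested genes in infarct and above 92.2% and 89.9% in Normal Ms1535 and Ms1537. Its place was near the middle of the distribution in infarct and near the top in both Normal libraries. Aqp7 stood above 32.9%, 36.3% and 10.4% in MI and above 79.6% and 78.8% in these Normal libraries. Kcna5 stood above 13.1%, 56.9% and 12.5% in MI and above 71.0% and 61.7% in Normal Ms1535 and Ms1537. Cd300lg stood above 38.2% to 64.7% of genes in MI and above 86.5% and 83.3% in those libraries. Rgcc and Tspan13 changed place little, with 86.9% to 94.2% and 90.0% to 93.0% in MI and 96.2% to 96.5% for both in Normal Ms1535 and Ms1537. All 10 genes took a lower place in each MI library than in Normal Ms1535 and Ms1537, as 18.5% of tested genes did. In Normal Ms1608, Car4 stood above 29.8% of genes and Tspan13 above 78.4%.

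**Figure D3:**
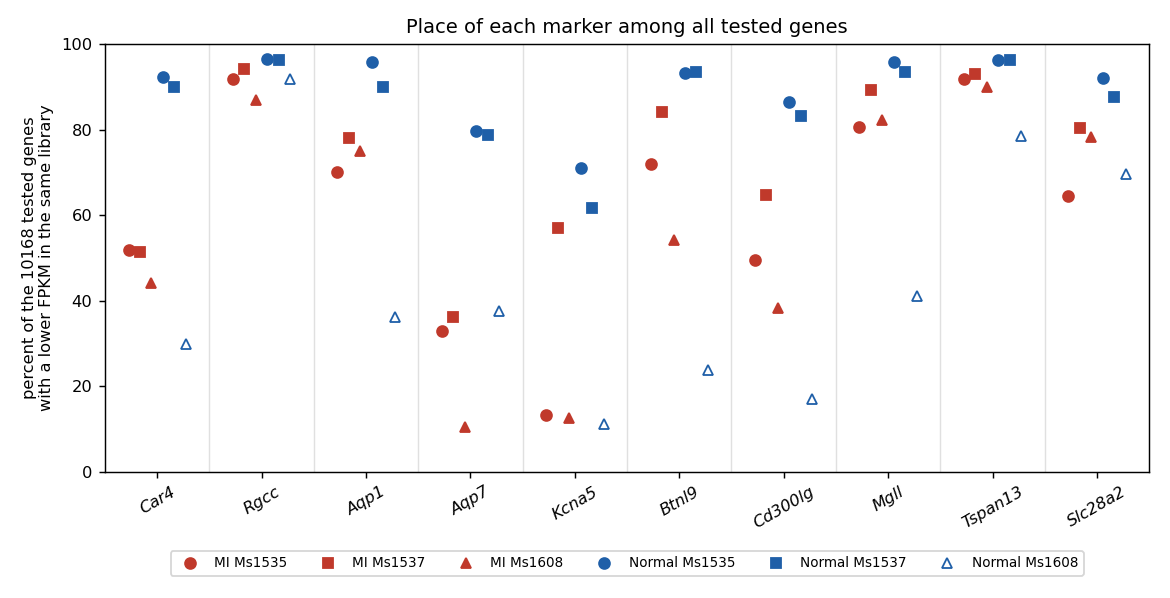
Percentage of the 10168 tested genes with a lower FPKM than each marker in the same library (red, MI; blue, Normal; the open triangle is Normal Ms1608). All MI points lie below both filled blue points for every gene, with Car4 at 44.0% to 51.9% against 89.9% and 92.2%.

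The comparison of MI with Normal asked how the sorted cells of the infarct differ from those of normal muscle. With all 6 libraries, none of the 10 genes passed the threshold of 0.05 by limma, and 0 had an unadjusted p under 0.05. Over all genes 1 of 10168 passed (0.00983%), 0.207% were lower at an unadjusted p under 0.05, and 16.1% were higher. The log2(FPKM + 1) differences, MI minus Normal, were below 0 for Car4 (-0.57, SE 1.18), Rgcc (-0.57, SE 0.68), Aqp7 (-0.67, SE 0.89) and Slc28a2 (-0.18, SE 0.73). They were above 0 for Mgll (0.71, SE 1.23), Btnl9 (0.32, SE 1.37), Aqp1 (0.28, SE 1.24), Cd300lg (0.22, SE 1.13), Kcna5 (0.22, SE 0.95) and Tspan13 (0.16, SE 0.75). Limma adjusted p-values lay between 0.683 for Rgcc and 0.934 for Cd300lg. Every difference was smaller than its standard error, and a p of this size does not show that levels were alike. The median of the 10 genes was 0.19, while the median of all tested genes was 0.78 and 12.8% of them lay below 0 and 87.2% above, against 4 and 6 of the 10. Directions turned with single libraries. Without MI Ms1537, 9 of the 10 lay below 0, among them Kcna5 (-0.53), Btnl9 (-0.30), Cd300lg (-0.26), Tspan13 (-0.12) and Aqp1 (-0.0046). Car4 lay at 0.36 without Normal Ms1535 and at 0.04 without Normal Ms1537, and Slc28a2 at 0.26 without Normal Ms1535 and at 0.09 without MI Ms1535. With median-ratio, upper-quartile or quantile scaling all 10 lay below 0, with medians of -0.81, -0.57 and -0.94, while the median of all genes moved to -0.03, 0.20 and -0.05. Genes at an unadjusted p under 0.05 then numbered 328, 467 and 291 higher and 160, 128 and 215 lower, against 1635 and 21 without scaling. Of the 10 genes, 1 was lower at an unadjusted p under 0.05 in each of these fits: Rgcc with median-ratio scaling (-1.65, unadjusted p = 0.0153 by limma) and upper-quartile scaling (-1.31, unadjusted p = 0.0419 by limma), and Aqp7 with quantile scaling (-2.03, unadjusted p = 0.0271 by limma). The shares of all genes lower in this way were 1.57%, 1.26% and 2.11%, and limma adjusted p-values of these genes were 0.834 to 0.905. No gene had all MI libraries below all Normal libraries, a pattern held by 0.354% of tested genes.

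Without Normal Ms1608, all 10 genes had lower means in MI, where 12.3% of tested genes did, and the median of the 10 was -1.01 against 0.83 for all genes. Lower means were shared by 22 of 25 pan-endothelial genes (median -0.66) and 18 of 21 other tested genes of heart capillaries (median -0.70). In each of these lists 3 lay above 0, so lower means were not particular to the 10. None of the 10 passed the limma threshold, against 0.0688% of all genes called lower and 4.45% called higher. Of the 10, 2 were lower at an unadjusted p under 0.05 (0.738% of genes, with 30.8% higher). The largest difference among the 10 was that of Car4, at -2.12 (SE 0.51, unadjusted p = 0.00260, limma adjusted p = 0.0534), which was the 28th lowest of the 10168. Its mean over both remaining Normal libraries was 4.73 times that over the 3 MI libraries. Aqp7 followed at -1.57 (SE 0.59, unadjusted p = 0.0262, limma adjusted p = 0.121), then Btnl9 at -1.46 (SE 0.70), Aqp1 at -1.32 (SE 0.59) and Cd300lg at -1.14 (SE 0.62), with limma adjusted p of 0.164 to 0.225. Mgll (-0.88), Kcna5 (-0.70), Rgcc (-0.61), Slc28a2 (-0.58) and Tspan13 (-0.49) had SE of 0.48 to 0.75 and limma adjusted p of 0.293 to 0.50. All MI libraries lay below both Normal libraries for 3 of the 10 genes (Car4, Aqp7 and Btnl9), against 1.75% of tested genes. The same held for 3 of 25 pan-endothelial genes and 6 of 21 other tested genes of heart capillaries. All MI libraries lay above both Normal libraries for 0 and 1 of these. Only the weighted fit of limma, which gave Normal Ms1608 a weight of 0.117 and the other libraries 0.738 to 2.66, called 1 of the 10 genes over the 18 other settings: Car4, at -1.86 (limma adjusted p = 0.0230), with 0.777% of all genes called lower.

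**Figure D4:**
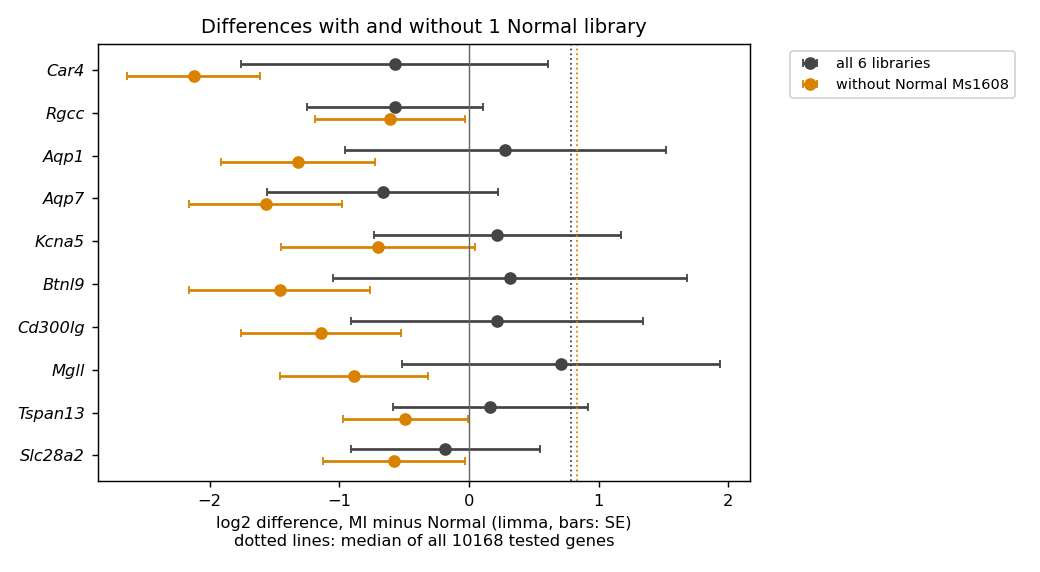
Log2 differences, MI minus Normal, with SE (bars) for the 10 genes by limma with all 6 libraries (grey) and without Normal Ms1608 (orange); dotted lines are the medians of all tested genes, 0.78 and 0.83. All 10 orange points lie below 0, and Car4 is lowest at -2.12.

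Endothelial RNA itself differed between libraries, so each gene was set against the mean of 25 pan-endothelial genes in its own library. On this scale (log2(FPKM + 1) of the gene minus that mean), Car4 was at -0.53, -1.45 and -0.50 in MI and at 0.68, 0.59 and -0.54 in Normal. The 3 MI values lay below Normal Ms1535 and Ms1537, and 1 of them below Normal Ms1608. Aqp7 was at -1.31, -2.13 and -1.74 in MI and at -0.95, -0.69 and -0.05 in Normal, where every MI value lay below every Normal value. Cd300lg was at -0.66, -0.78 and -0.74 in MI and at -0.22, -0.26 and -0.85 in Normal, and Btnl9 at 0.50, 0.56 and -0.08 against 0.94, 1.30 and -0.73. For both genes the MI libraries lay below Normal Ms1535 and Ms1537 but not below Normal Ms1608. Pan-endothelial genes in that library were near the bottom of the scale, so its relative values rest on low levels.

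For the other 6 genes the infarct values overlapped those of Normal Ms1535 and Ms1537 on this scale. Without Normal Ms1608, the MI mean differed from the Normal mean by 0.06 for Rgcc, 0.08 for Slc28a2, -0.04 for Kcna5, 0.17 for Tspan13, -0.22 for Mgll and -0.66 for Aqp1, against -1.46 for Car4, -0.90 for Aqp7, -0.80 for Btnl9 and -0.48 for Cd300lg. The difference of Aqp1 was thus larger than that of Cd300lg although its groups overlapped. Means were lower in MI for 7 of the 10, where 3.72% of tested genes were. They were also lower for 12 of 25 pan-endothelial genes and 12 of 21 other tested genes of heart capillaries, and higher for 13 and 9. In all, 4 of the 10 genes had MI values below both Normal libraries on this scale, where 0.511% of tested genes did. Pan-endothelial genes, which set the scale, did so in 7 of 25 cases (Emcn, Robo4, Kdr, Myct1, Clec14a, Ecscr and Egfl7) and went the other way in 4. Of 21 other tested genes of heart capillaries, 5 did so (Ly6c1, Cd36, C1qtnf9, Rbp7 and Gpihbp1) and 1 went the other way. As shares, these are 4 of 10, 7 of 25 and 5 of 21. A limma fit on these relative values without Normal Ms1608 gave Car4 a difference of -1.46 (SE 0.66, limma adjusted p = 0.0935) and called none of the 10, with 1 lower at an unadjusted p under 0.05. Over all genes this fit called 0.0197% lower and 23.4% higher, and 0.207% were lower and 47% higher at an unadjusted p under 0.05.

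**Figure D5:**
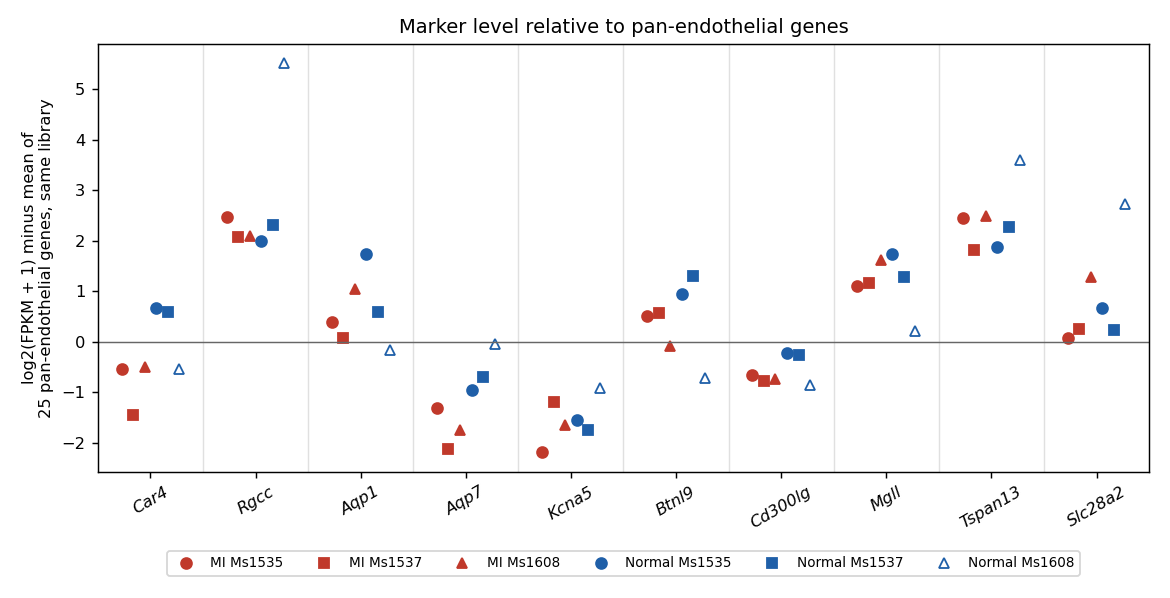
Level of each gene relative to the mean log2(FPKM + 1) of 25 pan-endothelial genes in the same library (red, MI; blue, Normal; the open triangle is Normal Ms1608; 0, equal to the mean). For Car4, Aqp7, Btnl9 and Cd300lg the red points lie below both filled blue points, while those of Rgcc lie at 2.08 to 2.47 beside 2.01 and 2.31.

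Each gene was also placed beside its own family. Among 11 aquaporins only Aqp1 and Aqp7 passed the filter. Aqp3 and Aqp9 came next, Aqp3 with 7.28 FPKM in MI Ms1535 and at most 0.20 FPKM elsewhere, and Aqp9, a glycerol channel of leukocytes, with 0.838 to 2.80 FPKM in MI and 0.112 to 0.447 FPKM in Normal. Among 15 carbonic anhydrases, 4 passed the filter and none was called by limma, with 0 at an unadjusted p under 0.05 in all 6 libraries. Without Normal Ms1608 none was called, and at an unadjusted p under 0.05 Car4 was lower and Car2 higher. Of all genes, 0.738% were lower and 30.8% higher in this way. Car8, a relative without catalytic activity, stood at 4.32, 6.01 and 7.82 FPKM in infarct against 16.9, 9.62 and 0.109 FPKM, the same separation as Car4 without Normal Ms1608. Car2, a cytosolic enzyme, ran against them with 1.36, 12.9 and 2.82 FPKM in infarct against 0.271, 0.538 and 4.0 FPKM. Kcna5 and Btnl9 were the only genes of their families past the filter, among 11 channel genes and partners and 8 butyrophilin genes measured.

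Most CD300 receptors other than Cd300lg are proteins of myeloid cells, and the leading ones were higher in infarct than in Normal Ms1535 and Ms1537. Cd300ld stood at 9.20, 20.2 and 40.4 FPKM in infarct against 0.821, 2.47 and 70.1 FPKM, and Cd300lf 10.0, 11.9 and 28.3 FPKM against 1.07, 0.575 and 1.55 FPKM. With all 6 libraries no gene of the family passed by limma and 2 of 5 tested were higher at an unadjusted p under 0.05, against 16.1% of all genes. Without Normal Ms1608, Cd300ld (3.05, limma adjusted p = 0.0426) and Cd300lf (3.15, limma adjusted p = 0.0289) rose in MI, where 4.45% of all genes were called higher. Of 21 tested tetraspanins, none passed with all libraries, and 3 were higher at an unadjusted p under 0.05, where 16.1% of all genes were. Without Normal Ms1608, 2 rose, where 4.45% of all genes were called higher: the leukocyte proteins Cd53 and Tspan32 (3.13 and 2.73, limma adjusted p = 0.0210 and 0.0424). Tspan7, at 46.8, 139 and 20.1 FPKM in infarct against 136, 83.2 and 0.791 FPKM, was highest in MI Ms1537 and lowest in Normal Ms1608, as Kcna5 was. Cd81, which is expressed in many cell types, stood at 111 to 225 FPKM in infarct against 251, 157 and 22.5 FPKM.

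In the pathway of glyceride breakdown, Mgll had the highest mean FPKM over the 6 libraries among 9 tested genes, although G0s2 exceeded it in both Ms1608 libraries. None passed by limma with all libraries (2 higher at an unadjusted p under 0.05) or without Normal Ms1608 (1 higher). Of all genes, 16.1% and 30.8% were higher in this way. Abhd12, another monoglyceride lipase, stood at 12.2, 14.6 and 11.1 FPKM in infarct against 5.10, 2.03 and 0.265 FPKM, so that all MI values lay above all Normal values, unlike Mgll. With all 6 libraries 87.2% of tested genes had a difference above 0, and the share separated as Abhd12 was not counted. G0s2, an inhibitor of triglyceride lipase, stayed between 24.0 and 34.8 FPKM in all 6 libraries. Among genes of nucleoside transport and adenosine handling, 7 were tested and none passed. At an unadjusted p under 0.05, 0 were higher in all 6 libraries and 2 without Normal Ms1608, against 16.1% and 30.8% of all genes. The equilibrative transporter Slc29a1 stood at 4.24, 10.7 and 3.34 FPKM in infarct against 3.11, 2.12 and 0.138 FPKM, where MI exceeded Normal throughout. The share of all genes with such a separation was not counted. Entpd1, a nucleotide-cleaving ectoenzyme, peaked in Normal Ms1608 at 39.0 FPKM, against 1.92 to 9.53 FPKM in the other 5. Of 8 genes listed as cell cycle partners and targets of Rgcc, 5 were tested and none passed. At an unadjusted p under 0.05, 2 were higher in all 6 libraries and 3 without Normal Ms1608, against 16.1% and 30.8% of all genes. Cdkn1a, the cell cycle inhibitor and the most abundant of them by mean, stood at 22.0, 21.8 and 21.6 FPKM in infarct against 12.01, 7.95 and 72.6 FPKM, with its highest value in Normal Ms1608. Cdk1 stood at 15.0, 2.93 and 3.15 FPKM in infarct against 1.99, 1.67 and 0.0984 FPKM, with its lowest value there.

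Genes with the nearest profiles over the 6 libraries were found by Euclidean distance between centred log2(FPKM + 1) values among tested genes. Nearest to the mean profile of the 10 genes were Ptprg (distance 0.46), Tspan12 (0.49), Palmd (0.61), Ptprb (0.62) and Tspan18 (0.62). Ptprb is a phosphatase of endothelial cells, and Tspan12 and Tspan18 are tetraspanins like Tspan13. For single genes, Kcna5 lay nearest to Efr3b (0.25), Cd300lg to Unc5b (0.28), Tspan13 to Dach1 (0.28), Btnl9 to Tmem88 (0.37), Slc28a2 to Vsig2 (0.38), Mgll to Cmtm8 (0.44), Aqp1 to Lims2 (0.55), Rgcc to Snhg6 (0.63), Aqp7 to Eva1a (0.84) and Car4 to Nostrin (1.01). Car4 thus had no close match, and Rgcc was nearest to Snhg6, a host gene of small RNAs with 75.7 FPKM in Normal Ms1608. Distances describe 6 libraries of which 1 stands apart, and they carry no test. The scale flattens changes of low values, so a near gene of low level need not change by a like fold. From Normal Ms1535 to Normal Ms1608, Dach1 went from 4.05 to 0.0436 FPKM and Tspan13 from 99.4 to 23.5 FPKM. Vsig2 was at 0 FPKM in Normal Ms1608, where Slc28a2 was at 12.5 FPKM.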

How the data were processed

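RNA of sorted tdTomato+F4/80- cells was amplified by in vitro transcription before library preparation, per the labels' protocols, which can widen the spread between libraries. The deposited table holds FPKM values made by the authors. The submitters' processing notes name STAR 2.4.2a, Cufflinks 2.2.1 and GRCm38, and which annotation release and strand setting were used is not given in the sources used here. Genes were followed by identifier, and positions came from GENCODE on GRCm38. Genes reaching 1 FPKM in 3 or more libraries entered limma 3.58.1 (R 4.3.3, trended variance) as log2(FPKM + 1), MI against Normal, with Benjamini-Hochberg adjustment over all tested genes and a threshold of 0.05. This scale understates changes of low values. With 3 libraries against 3, an exact permutation test cannot give a p below 0.1 and was not used. Depth was read from low values of genes with 1 annotated transcript, of which 70.3% to 77.8% lay within 0.1 of a whole fragment once the step was fitted (20% if spread evenly). Implied depths exceed the read number in the labels' protocol, which was not reconciled. The fit was run on simulated data as a check of the code. Its outcome is not given here and is no support for the results. The 10 genes, the gene lists and the settings were chosen with earlier results of these data known. Named genes are the 10, the most abundant of each family list (up to 4), the leading markers of each cell type list, the nearest profiles, and genes that a count singles out. Alternatives covered pseudocount, filter, scaling, weights, a replicate block and each library left out.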

Additional observations from a re-analysis of the deposited data

How the results depend on the processing

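The number of genes called was 1 with all libraries and under 8 alternatives that left every library in (pseudocounts, filters, scalings and the replicate block). It was 3288 with library weights, 0 relative to pan-endothelial genes, 2386 on that scale without Normal Ms1608, and 1 to 459 with 1 library left out, 459 being without Normal Ms1608. For the 10 genes, 118 of 179 values under the alternatives kept their direction and side of the threshold, 60 turned direction and 1 passed it. Under median-ratio scaling, the difference turned to -0.70 for Aqp1, -0.53 for Kcna5, -0.62 for Btnl9, -0.65 for Cd300lg, -0.30 for Mgll and -0.92 for Tspan13. Under upper-quartile scaling, the difference turned to -0.50 for Aqp1, -0.49 for Kcna5, -0.50 for Btnl9, -0.57 for Cd300lg, -0.065 for Mgll and -0.58 for Tspan13. Under quantile scaling, the difference turned to -0.83 for Aqp1, -0.97 for Kcna5, -0.84 for Btnl9, -1.06 for Cd300lg, -0.26 for Mgll and -0.31 for Tspan13. With library weights, the difference turned to -1.16 for Aqp1, -0.81 for Kcna5, -1.24 for Btnl9, -0.99 for Cd300lg, -0.80 for Mgll and -0.36 for Tspan13. With a pseudocount of 5, the difference turned to -0.10 for Aqp1, -0.11 for Btnl9 and -0.10 for Cd300lg. Relative to pan-endothelial genes, the difference turned to -0.22 for Aqp1, -0.28 for Kcna5, -0.18 for Btnl9, -0.28 for Cd300lg and -0.33 for Tspan13. Relative to pan-endothelial genes and without Normal Ms1608, the difference turned to 0.056 for Rgcc, -0.66 for Aqp1, -0.036 for Kcna5, -0.80 for Btnl9, -0.48 for Cd300lg, -0.22 for Mgll and 0.085 for Slc28a2. With the replicate block and both Ms1608 libraries left out, the difference turned to -1.13 for Aqp1, -0.25 for Kcna5, -0.80 for Btnl9, -0.68 for Cd300lg, -0.58 for Mgll and -0.15 for Tspan13. With 1 library left out, differences ranged from -2.12 to 0.36 for Car4, -1.0 to -0.05 for Rgcc, -1.32 to 1.5 for Aqp1, -1.57 to -0.14 for Aqp7, -0.70 to 0.86 for Kcna5, -1.46 to 1.25 for Btnl9, -1.14 to 1.04 for Cd300lg, -0.88 to 1.76 for Mgll, -0.49 to 0.53 for Tspan13 and -0.58 to 0.26 for Slc28a2. The cause of the turns was not tested.

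The shared numbers were checked for pairing. Deviations of same-numbered libraries from their group means correlated at -0.05, 0.10 and 0.09 over 10168 genes, and those of different numbers at -0.11 to 0.10. MI Ms1535 correlated best with another number (0.03). With 3 libraries per group, 1 of them far from the others, this check can neither show nor exclude pairing. The labels do not give pairs, so the main fit was unpaired and the replicate block was an alternative. The replicate block left 1 gene called and the median of the 10 genes at 0.19, and with both Ms1608 libraries left out it called 687. FPKM hold no counts, so the precision of low values such as Kcna5 in Normal Ms1608 is limited by the implied depth.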

Other observations

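Other genes of the vessel wall are given as values. Rbp7, a retinoid-binding protein of capillaries, was at 91.5, 124 and 70.1 FPKM in infarct and 435, 324 and 1.63 FPKM in the Normal libraries. It was 1 of the 7 genes called lower without Normal Ms1608 (-2.01, SE 0.43, limma adjusted p = 0.0404), and with all 6 libraries its difference was 0.38 (SE 1.62, limma adjusted p = 0.919). Gpihbp1, which holds lipoprotein lipase on the capillary surface, had a difference of -2.30 without that library (SE 0.54, limma adjusted p = 0.0507), close to the -2.12 of Car4. Nr2f2, a regulator of venous identity, was at 4.07, 3.28 and 2.32 FPKM in infarct and 0.558, 0.693 and 0.0353 FPKM in Normal, so the groups did not overlap. It did not pass the threshold with all libraries (1.57, SE 0.45, limma adjusted p = 0.245) or without Normal Ms1608 (1.36, SE 0.43, limma adjusted p = 0.0876). The share of all genes separated in this way was not counted. Ephb4, also on the venous list, was at 1.14, 1.73 and 0.429 FPKM in infarct and 2.75, 3.58 and 0.0605 FPKM in Normal. Without Normal Ms1608 its difference was -1.03 (SE 0.45, limma adjusted p = 0.155). Of 5 tested venous genes, 3 had all MI libraries above both Normal Ms1535 and Ms1537, and 1 had all below.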
